A study of Saccharomyces cerevisiae with 15 samples.

Results

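C3-06 is an evolved, β-carotene-producing strain of the budding yeast Saccharomyces cerevisiae, taken partway through a strain evolution, and it was compared gene by gene with C0, the original β-carotene strain. The libraries were chosen by the strain in their labels, which gave 3 libraries of C3-06 and 3 of C0, or 6 of the 15 RNA sequencing libraries of the series, with all 5980 nuclear protein-coding genes of the deposited table. Both strains are in the S288C laboratory background with the marker alleles his3Δ1, leu2Δ0, met15Δ0 and ura3Δ0. Both are labelled as overexpressing spCas9-NG, HMG1, CrtE, CrtYB and Crt I. The first is a genome-editing nuclease, Hmg1 is the reductase that limits flux into the mevalonate pathway, and the 3 Crt proteins turn prenyl diphosphates into β-carotene. No label names an allele that C3-06 has and C0 lacks, and none says whether a strain is 1 clone. Cultures of both were grown in YPD, a rich medium, with 20 g/L glucose at 30 °C and were harvested while growing exponentially, near an optical density of 3. The other 9 libraries, of the starting strain BY47419, without the carotenoid genes in its label, and the evolved strains C5-63 and C7-143, shared the estimate of the spread, and C5-63 also served as a direct comparison.

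Libraries of the 2 strains held 16144808 to 20791865 reads assigned to genes, with C0 at the lower end, and reads were found for 5854 to 5868 genes. Levels are given as CPM, which are read counts scaled for library size and composition, and SE stands for the standard error of a change on the log2 scale. One library stood apart: C3-06 replicate 1 differed from replicates 2 and 3 with a chi-square per degree of freedom of 103 and 74, where replicates 2 and 3 differed from each other with 13.5 and the C0 pairs with 11.5 to 26.2. In replicate 1, 15 genes lay more than 2-fold from the other 2 libraries of its strain, against 0 and 1 in replicates 2 and 3. It held more glycolytic and stress gene reads than the other 2 and fewer ribosomal protein reads, and values without it are given for named genes and gene lists whose call or direction turned. The labels do not say that replicates came from separate cultures, so p-values measure the spread between libraries, which may be technical. In bulk RNA, fewer cells in a state and less RNA per cell cannot be told apart.

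In growing yeast with ample glucose, the protein kinase A and TORC1 pathways hold up transcription of the genes that build ribosomes. The same signals keep the stress activators Msn2 and Msn4 out of the nucleus, while glucose repression silences genes for respiration and for the use of other carbon sources. When glucose runs out both sets turn around. The mevalonate pathway makes the prenyl diphosphates from which the cell draws sterols and, in these strains, carotenoids.

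The transcriptomes of C0 and C3-06 differed across most of the genome. Of 5814 genes with enough reads to test, 80.5% were called at an adjusted p below 0.05 in the edgeR quasi-likelihood test, 41.1% higher and 39.4% lower in C3-06. The C0 and C3-06 libraries did not overlap for 81.4% of the genes. Since calls are this common, sizes were also tested: 1315 genes, or 22.6%, were higher by more than 1.5-fold, and 1028, or 17.7%, were lower by more than 1.5-fold. At least 4-fold changes numbered 291 upward and 142 downward. The median log2 fold change over all genes tested was 0.021 and the median of its size 0.60, and the group counts that follow are read against these shares. Scaling by library totals alone moved that median to 0.222 and the calls to 2820 higher and 1702 lower, against 2387 and 2292, so changes below are relative to the median gene. A gene is said to have risen or fallen where it passed the adjusted p of 0.05, and a group's median is that of its tested members' log2 fold changes.

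**Figure D1:**
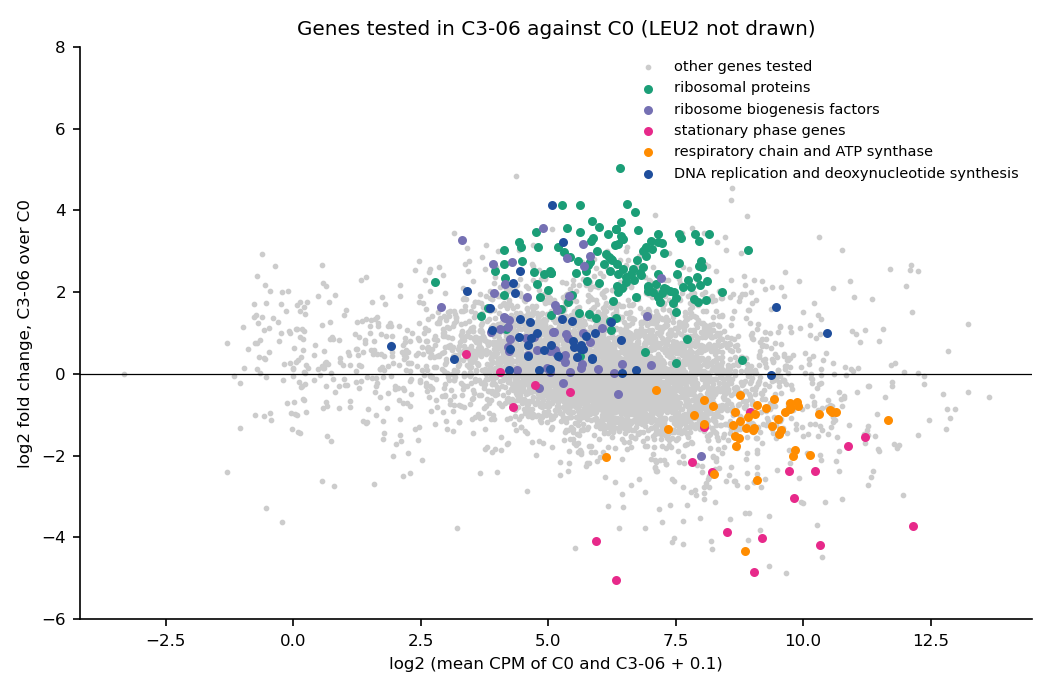
Log2 fold change of C3-06 over C0 (vertical axis) against the log2 of the mean CPM of both strains plus 0.1 (horizontal axis), with 1 point per gene tested and 5 gene groups in colour. Ribosomal proteins lie above 0 with 2 replication genes among the highest points, and respiratory genes lie below 0. LEU2, with 0 reads in C3-06, is not drawn.

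The genes of the labels were looked at first. HMG1, the overexpressed reductase (YML075C, chromosome XIII, 115734 to 118898), stood at 2192, 2014 and 2047 CPM in C0 and 1031, 912 and 1054 CPM in C3-06, with no overlap. HMG1 fell by 1.06 log2 units (SE 0.13) with an adjusted p of 1.49e-06 in the edgeR quasi-likelihood test. In BY47419, which is not labelled as overexpressing it, HMG1 had 79.8 ± 3.49 CPM (SD, n = 3). LEU2, which encodes the isopropylmalate dehydrogenase of leucine synthesis (YCL018W, chromosome III, 91324 to 92418), had 176, 153 and 189 CPM in C0 and no read in any C3-06 library. Against a floor of 3 counts over the strain, LEU2 was at least 3766-fold lower, although the labels give leu2Δ0 to both strains. HIS3, of histidine synthesis, rose from 34.7, 34.0 and 38.3 CPM to 99.2, 102 and 103 CPM, under a label that gives his3Δ1 to both. MET17, the gene of the met15Δ0 allele, and URA3 had at most 1 read per strain in C0 and C3-06, and GAL80, the repressor of the galactose genes, had 0 reads in both.

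The genes beside LEU2 on chromosome III had reads in C3-06 wherever C0 had them. Downstream, NFS1, a cysteine desulfurase, moved by -0.35 ± 0.069, DCC1, a subunit of a clamp loader, by -0.72 ± 0.087, and YCL012C by -1.31 ± 0.10 on the log2 scale. BUD3, of axial bud site choice, moved by -0.26 ± 0.12 log2 units and was not called, although it was, as lower, with DESeq2, with RLE scaling, with a replicate block, and without C0 replicate 2, C3-06 replicate 2 or C3-06 replicate 3. The fall of NFS1 was not called with library totals alone. Upstream, the kinase gene KCC4 rose by 1.21 ± 0.16 and YCL021W-A by 0.45 ± 0.13 log2 units, while YCL020W had 0 reads in both strains and YCL019W had 27 against 14 reads. Of these 9 genes LEU2 alone went from reads to none. The labels give leu2Δ0 to both strains and do not say from where the LEU2 reads of C0 come. The neighbours on chromosome III therefore cannot show where LEU2 reads were lost.

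Of the 12 largest rises, 7 were ribosomal protein genes and the others fell in the cell cycle, the cell wall and polyamine export. RPS22A, a small subunit protein, stood at 6.06, 3.65 and 5.30 CPM in C0 and 121, 199 and 174 CPM in C3-06. PCL1, a G1 cyclin of the Pho85 kinase, stood at 2.15, 1.31 and 0.798 CPM in C0 and 17.5, 53.1 and 48.3 CPM in C3-06, with its lowest C3-06 value in replicate 1. In both genes every C3-06 library lay above every C0 library, which the rule that picked the largest rises required. NCW2, a structural protein of the cell wall, stood at 31.9, 29.2 and 34.1 CPM in C0 and 622, 853 and 762 CPM in C3-06. TPO2, a polyamine exporter, stood at 15.4, 18.1 and 18.0 CPM in C0 and 204, 315 and 248 CPM in C3-06. Their log2 fold changes were 4.55 ± 0.19 and 3.89 ± 0.16. The rises of the ribosomal protein genes RPL17B, RPS26B, RPS9B, RPS1B, RPS18B and RPL27A lay between 3.72 and 4.15 log2 units.

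After LEU2, the 12 largest falls included RGI2, PCK1, COX26 and ALD6. RGI2, a respiratory growth gene, stood at 175, 124 and 167 CPM in C0 and 6.29, 3.68 and 4.32 CPM in C3-06. PCK1, which starts gluconeogenesis, stood at 1758, 1212 and 1719 CPM in C0 and 66.8, 43.1 and 51.2 CPM in C3-06. COX26, a subunit of cytochrome c oxidase, stood at 936, 949 and 756 CPM in C0 and 53.0, 32.3 and 45.6 CPM in C3-06, and fell by 4.34 log2 units with an adjusted p of 1.26e-10 in the edgeR quasi-likelihood test. ALD6, the cytosolic aldehyde dehydrogenase that makes acetate for acetyl-CoA, stood at 593, 386 and 701 CPM in C0 and 23.9, 30.6 and 32.1 CPM in C3-06, and its log2 fold change was -4.28 ± 0.29. The rule that picked the largest falls required that the strains not overlap. YIG1, an inhibitor of glycerol production, changed by -4.26 ± 0.20, SDD1 by -4.15 ± 0.14, and POT1, the peroxisomal thiolase, by -4.11 ± 0.26 log2 units.

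**Figure D2:**
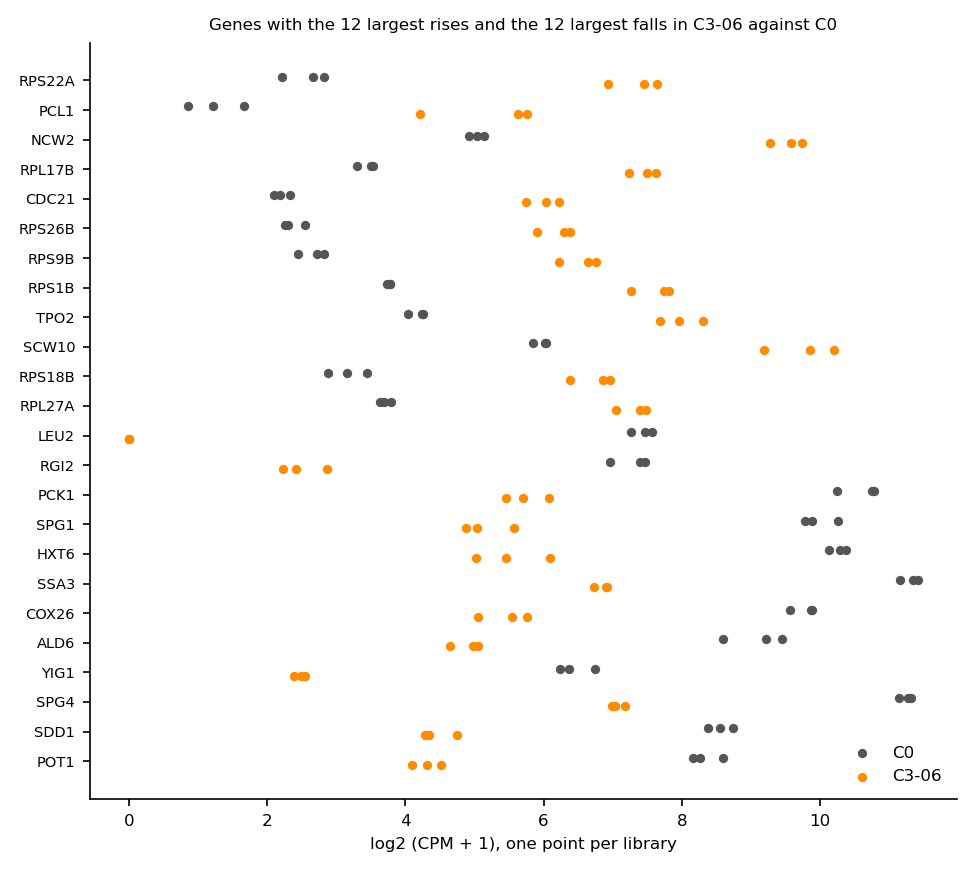
Level of the 12 genes with the largest rises and the 12 with the largest falls, as log2 of CPM plus 1, with 1 point per library (C0 grey, C3-06 orange, 3 each). The 24 genes were chosen among those whose C0 and C3-06 libraries do not overlap, so the gap between strains follows from that choice. LEU2 lies at 0 in C3-06.

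By reads gained rather than fold, glycolysis led and chaperones lost the most. TDH3, the main glyceraldehyde-3-phosphate dehydrogenase, went from 5724 ± 233 to 13409.7 ± 2808 CPM (SD, n = 3), and GPM1, phosphoglycerate mutase, from 1462 ± 77.8 to 8330.5 ± 1834. FBA1, CDC19, PGK1 and TPI1, the aldolase, pyruvate kinase, phosphoglycerate kinase and triosephosphate isomerase, completed the 6 largest gains. HSP30, a plasma membrane stress protein, went from 8457 ± 757 to 636 ± 267 CPM, and HSP26, a small chaperone, from 10248 ± 712 to 4019.9 ± 1225. HSP12 and HSP104 followed, and after them GAL10 and GAL1, whose log2 fold changes were only -0.58 ± 0.14 and -0.87 ± 0.15. The glycolytic enzymes held 3.16, 3.44 and 3.17% in C0 and 11.1, 8.25 and 7.73% in C3-06 of all reads. Replicate 1 was the highest of the 3 C3-06 libraries.

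**Figure D3:**
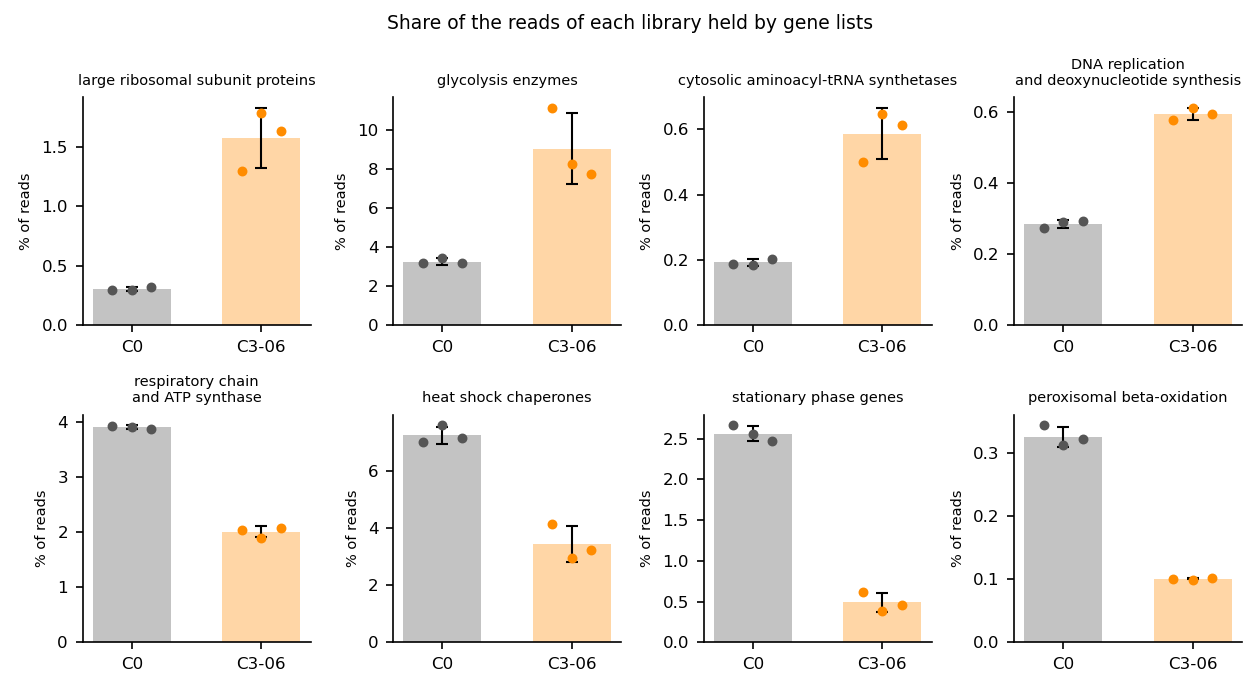
Share of each library's reads held by 8 gene lists, in percent of all reads assigned to genes. Points are libraries, bars are means and error bars are the SD over 3 libraries of C0 (grey) or C3-06 (orange), with replicates 1 to 3 drawn from left to right. The strains do not overlap in any of the 8 panels, which are a selection of the lists. In lists not drawn, such as histone genes and mitotic regulators, the shares of the 2 strains overlap. C3-06 replicate 1 is the highest of its strain for glycolysis, chaperones and stationary phase genes.

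Genes of protein synthesis were higher in C3-06. Ribosomal proteins of the large subunit held 0.296, 0.296 and 0.320% in C0 and 1.30, 1.79 and 1.64% in C3-06 of reads, with replicate 1 the lowest of C3-06. Ribosome biogenesis factors, which process and assemble the ribosome in the nucleolus, had 46 of 57 tested members higher and 3 lower, with a median log2 fold change of 0.89. By more than 1.5-fold, 32 were higher and 1 lower. GAR1, NOP58 and NOP56, core proteins of the small nucleolar particles that modify ribosomal RNA, rose by 2.83, 2.89 and 2.35 log2 units. SOF1, which acts in processing of the small subunit RNA, stood at 15.3, 13.7 and 14.1 CPM in C0 and 72.4, 101 and 95.0 CPM in C3-06. RIO1, a kinase of late small subunit maturation, went the other way with 449, 371 and 406 CPM in C0 and 121, 91.2 and 94.6 CPM in C3-06, a log2 fold change of -2.00 ± 0.10. MPP10 also fell, by -0.49 log2 units.

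Most subunits of RNA polymerases were higher as well. RNA polymerases I and III, which make ribosomal RNA and tRNA, had 15 of 19 subunits higher and 2 lower, with a median of 1.20. RPA43 stood at 1.15, 1.14 and 2.11 CPM in C0 and 12.5, 18.3 and 17.5 CPM in C3-06. RPA12 stood at 2.09, 1.67 and 2.85 CPM in C0 and 15.7, 21.8 and 19.2 CPM in C3-06. These polymerase I subunits changed by 3.44 ± 0.26 and 3.09 ± 0.21, whereas RPC37 changed by -0.23 and RPO31 by -0.18 log2 units. Neither of these falls was called without C3-06 replicate 1, C3-06 replicate 3, C0 replicate 1 or C0 replicate 3, or in a fit of the C0 and C3-06 libraries only. The fall of RPC37 was also not called without C3-06 replicate 2, and with library totals alone RPC37 moved to -0.027 and RPO31 turned to 0.022. Of the 7 subunits of polymerase II, which makes mRNA, 4 rose and 1 fell, with a median of 0.31. RPB11 rose by 1.09 log2 units. The largest subunit RPO21 fell by 0.15 log2 units, a fall not called without C3-06 replicate 3 and turned to 0.056 with library totals alone.

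Translation factors and the enzymes that charge tRNA followed. Of 36 factors, 29 rose and 1 fell, with a median of 0.86. TIF1, one of a pair of genes for the initiation helicase eIF4A, stood at 39.8, 35.9 and 36.0 CPM in C0 and 276, 313 and 284 CPM in C3-06. The elongation factor 2 genes EFT1 and EFT2 rose by 1.86 and 1.78 log2 units. TEF2, one of a near-identical pair for elongation factor 1α, fell by 0.45 log2 units, and reads of such pairs may have been split between copies by the counting. Of 20 cytosolic aminoacyl-tRNA synthetases, 19 rose. TYS1, which charges tyrosine tRNA, stood at 23.1, 24.6 and 31.2 CPM in C0 and 212, 261 and 263 CPM in C3-06, and KRS1, which charges lysine tRNA, rose by 2.31 log2 units. GLN4, for glutamine, was the exception and fell by 0.21 log2 units, a change not called without C3-06 replicate 1 and moved to -0.001 with library totals alone. Mitochondrial ribosomal proteins moved the other way: 48 of 69 fell and 7 rose, around a median of -0.38, and with library totals alone 28 fell and 11 rose. MRPL28 changed by -1.41 and RSM7 by -1.12, and MRP10 rose by 0.60 log2 units.

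Promoters of the nucleolar genes are known for 2 short motifs, PAC (GATGAG) and RRPE (AAAATTTT). In windows of 300 bases, from 250 before to 50 after the start codon in the R64 genome and on either strand, GATGAG was found in 56 of 57 biogenesis promoters and in 20.4% of all promoters. AAAATTTT was found in 51 of them and in 9.01% of all promoters. Among genes at least 2-fold higher AAAATTTT was in 16.2% of promoters, and among those at least 2-fold lower in 4.29%. For GATGAG these shares were 23.5% and 18.1%, on either side of that of all promoters. The promoters of NOP1 and HAS1 are shown up to the start codon as examples that hold the pair of motifs. NOP1, which encodes fibrillarin, rose by 3.19, and HAS1, an RNA helicase, by 3.56 log2 units. The pair was also in the windows of RIO1 and MPP10, which fell. Capitals mark GATGAG, or its reverse complement CTCATC, and AAAATTTT. In HAS1 the GATGAG matches overlap.
NOP1 (R64, chrIV:427114-427363, plus strand): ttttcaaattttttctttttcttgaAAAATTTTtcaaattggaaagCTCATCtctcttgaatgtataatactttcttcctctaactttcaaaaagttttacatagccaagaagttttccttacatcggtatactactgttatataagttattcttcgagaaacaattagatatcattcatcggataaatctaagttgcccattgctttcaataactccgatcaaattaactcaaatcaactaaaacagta
HAS1 (R64, chrXIII:851592-851841, minus strand): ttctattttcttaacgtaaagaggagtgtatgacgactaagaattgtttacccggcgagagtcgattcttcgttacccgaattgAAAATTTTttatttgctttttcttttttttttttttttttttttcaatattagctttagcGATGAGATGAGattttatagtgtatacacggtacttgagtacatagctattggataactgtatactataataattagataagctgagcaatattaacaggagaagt

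Genes of DNA replication rose together. Of 43 tested members, 37 rose, 22 of them by more than 1.5-fold, and 0 fell, with a median of 0.80. CDC21, thymidylate synthase, stood at 4.04, 3.29 and 3.54 CPM in C0 and 52.9, 73.9 and 64.4 CPM in C3-06. RNR1, the large subunit of ribonucleotide reductase, stood at 6.53, 7.05 and 8.84 CPM in C0 and 47.8, 90.7 and 73.9 CPM in C3-06. POL30, the sliding clamp PCNA, stood at 6.20, 6.33 and 6.61 CPM in C0 and 24.4, 48.4 and 37.7 CPM in C3-06. For these the strains were fully apart, which the rule for the largest rises required of CDC21. Their log2 fold changes were 4.14 ± 0.16, 3.24 ± 0.23 and 2.53 ± 0.23. DUT1, the dUTPase, rose by 2.23, CDC45, of the replicative helicase, by 2.04, and RFC3, of the clamp loader, by 1.33 log2 units.

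The sequence ACGCGT, the core of the site bound by the G1/S factor MBF, was in 22 of 43 replication promoters of 300 bases and in 3.08% of all promoters. It was in 5.12% of the promoters of genes at least 2-fold higher and 1.38% of those at least 2-fold lower. The promoters of CDC21, with 2 matches, and POL30, with 1, are printed up to the start codon with ACGCGT in capitals.
CDC21 (R64, chrXV:467590-467839, minus strand): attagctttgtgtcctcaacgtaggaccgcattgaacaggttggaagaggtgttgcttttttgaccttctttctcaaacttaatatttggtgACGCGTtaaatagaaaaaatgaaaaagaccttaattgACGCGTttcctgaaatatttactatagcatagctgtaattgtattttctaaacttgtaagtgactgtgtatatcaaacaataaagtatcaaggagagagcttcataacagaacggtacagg
POL30 (R64, chrII:425767-426016, minus strand): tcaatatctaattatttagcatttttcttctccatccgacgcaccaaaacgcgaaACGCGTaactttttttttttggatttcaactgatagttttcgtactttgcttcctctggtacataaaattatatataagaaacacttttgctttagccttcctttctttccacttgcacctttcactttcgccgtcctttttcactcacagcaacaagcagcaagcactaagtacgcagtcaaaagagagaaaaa

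Other cell cycle lists held both rises and falls. Among 14 G1 cyclins and regulators of cycle entry, 5 rose and 5 fell. With 41.1% of all genes tested higher and 39.4% lower, nothing particular to this list is read from those counts. CLN1 stood at 7.54, 5.86 and 6.39 CPM in C0 and 26.3, 44.9 and 41.1 CPM in C3-06 and its partner CLN2 changed by 0.99 ± 0.13, while CLN3, the upstream cyclin, changed by -0.57 and the inhibitor SIC1 by -0.98 log2 units. NRM1, the repressor of MBF, rose by 0.79 and STB1 by 0.78, and the factor genes SWI6 and MBP1 changed by -0.66 and -0.55 log2 units. WHI3, an RNA-binding protein that holds back CLN3, fell by 0.73 log2 units. PCL2, WHI5, SWI4 and FAR1 were not called, although FAR1 was, as higher, without C0 replicate 1 and with library totals alone. With library totals alone 8 of the G1 list were higher. Of 10 histone genes, 4 rose and 2 fell: HTA2 and HTB2 changed by 1.58 ± 0.13 and 1.70 ± 0.20, and HTA1 by -0.80 ± 0.17 log2 units. Without C0 replicate 2, C0 replicate 3, C3-06 replicate 1 or C3-06 replicate 3, each left out in turn, 1 histone gene was lower. Copies of histone genes are near identical and their counts are uncertain. Mitotic cyclins and regulators had 5 of 20 higher and 9 lower, with a median of -0.035, and 3 were lower with library totals alone. Without C3-06 replicate 1 the mitotic list had 6 lower and its median turned to 0.015.

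Hexose carriers moved in both directions. Of 16 hexose transporters and sensors, 4 rose and 8 fell. HXT3, a low-affinity carrier of glucose-rich cells, stood at 313, 261 and 279 CPM in C0 and 1017, 1436 and 1258 CPM in C3-06, and HXT2 rose by 1.94 log2 units. HXT6, a high-affinity carrier, stood at 1254, 1325 and 1122 CPM in C0 and 67.2, 31.4 and 42.8 CPM in C3-06, and its near-identical neighbour HXT7 fell by 2.23 log2 units. How reads were divided between HXT6 and HXT7 is not known. HXT5, a carrier of slowly growing cells, changed by -3.14, the sensor SNF3 by -1.30 and the repressor RGT1 by -1.47 log2 units. Of glycolytic enzymes, 14 of 17 rose and 1 fell, with a median of 1.92, and 2 fell without C3-06 replicate 1. HXK2, the main glucose kinase, stood at 331, 298 and 367 CPM in C0 and 1174, 1314 and 1277 CPM in C3-06, and TDH2 rose by 3.34 log2 units. At the branch after pyruvate, 6 of 14 rose and 7 fell, with a median of -0.14, a median that library totals alone turned to 0.058. The main decarboxylase and alcohol dehydrogenase PDC1 and ADH1 rose by 1.07 and 1.84 log2 units. PDC6, a minor decarboxylase, fell by 1.00 log2 units. ALD4, the mitochondrial aldehyde dehydrogenase, fell by 1.55 log2 units. ALD5 rose by 2.32 log2 units, and ADH2 was not called.

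In the pentose phosphate pathway, which makes NADPH and ribose, GND1 and TKL1 rose and their paralogs GND2 and TKL2 fell. GND1, the main 6-phosphogluconate dehydrogenase, stood at 446, 473 and 479.5 CPM in C0 and 937, 1061 and 1084 CPM in C3-06. GND2 stood at 1683, 1720.4 and 1456 CPM in C0 and 224, 163 and 203 CPM in C3-06. TKL1, the main transketolase, stood at 228, 224 and 282 CPM in C0 and 630.2, 780.5 and 775 CPM in C3-06. TKL2 stood at 845, 958 and 729.8 CPM in C0 and 98.2, 65.8 and 74.2 CPM in C3-06. In each pair 1 gene rose and the other fell, with no overlap of the strains. SOL3 and SOL4, the phosphogluconolactonases, changed by 1.62 ± 0.11 and -1.53 ± 0.20, and the transaldolases TAL1 and NQM1 by 1.12 ± 0.10 and -3.13 ± 0.12 log2 units. Of the pathway, 5 of 11 rose and 5 fell, with a median of -0.03, which turned to 0.049 without C3-06 replicate 1, to 0.042 without C3-06 replicate 3, to 0.2 without C0 replicate 3 and to 0.17 with library totals alone. ZWF1, which catalyses the first step and has no paralog in the list, fell by 1.29 log2 units. RPE1 rose by 0.87 log2 units, and RKI1 was not called.

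Such opposite moves were looked for in 44 pairs of duplicated genes. In 12 pairs, or 27.3%, 1 gene was called higher and the other lower. With 41.1% of all genes tested higher and 39.4% lower, nothing particular to duplicated genes is read from that count. In 13 pairs the order of the FPKM levels, which are per length, turned between the strains by the mean share over 3 libraries, although in C3-06 replicate 1 CLN1, at 46.2% of its pair with CLN2, and RNR1, at 38.5% of its pair with RNR3, did not pass the other gene. TKL1 held 21.2, 18.9 and 27.9% in C0 and 86.5, 92.2 and 91.3% in C3-06 of the summed FPKM of TKL1 and TKL2, and GND1 rose from a mean of 22.5% to one of 83.9% of its pair. ACS1, the acetyl-CoA synthetase of cells without glucose, held 68.4, 67.0 and 68.5% in C0 and 22.5, 16.4 and 18.8% in C3-06 of ACS1 and ACS2. URA5, an orotate phosphoribosyltransferase, held 9.09, 8.51 and 9.10% in C0 and 54.8, 67.0 and 64.9% in C3-06 of its pair with URA10, and GDH1, the glutamate dehydrogenase of growing cells, held 39.5, 46.0 and 49.2% in C0 and 79.5, 90.7 and 90.7% in C3-06 against GDH3, although GDH1 itself was called, as higher, only without C3-06 replicate 1 and with library totals alone. Other pairs called in opposite directions were CDC19 with PYK2, SOL3 with SOL4, PGM1 with PGM2, PET9 with AAC3, LEU4 with LEU9, BAT1 with BAT2 and ALD4 with ALD5. BAT1, the mitochondrial branched-chain aminotransferase, held 4.01, 6.20 and 5.36% in C0 and 40.0, 42.1 and 42.3% in C3-06 of its pair. PET9, the main mitochondrial ADP/ATP carrier, changed by -0.85 ± 0.11 and AAC3, its copy of low-oxygen cells, by 2.55 ± 0.27 log2 units.

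**Figure D4:**
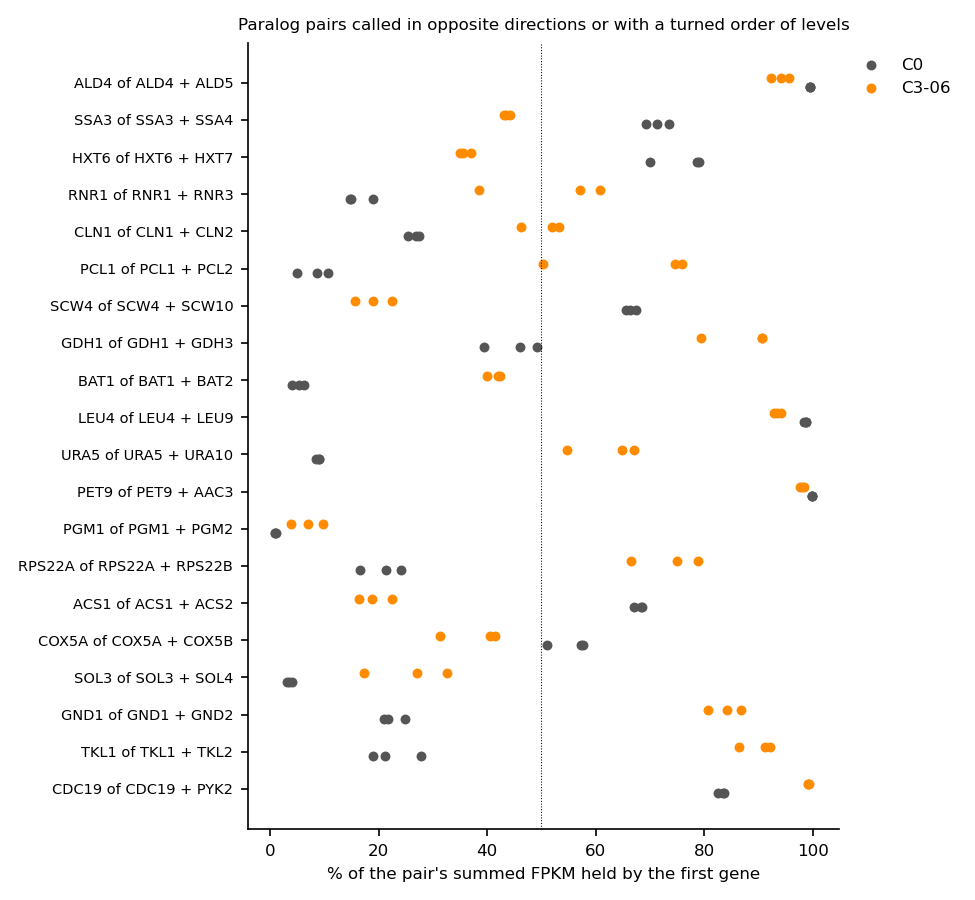
Share of a pair's summed FPKM held by the first gene named, in percent, for 20 pairs of duplicated genes called in opposite directions or with a turned order of levels. Points are libraries (C0 grey, C3-06 orange, 3 each) and the dotted line marks equal levels. TKL1, GND1 and URA5 lie below the line in all C0 libraries and above it in all C3-06 libraries, and ACS1 and HXT6 the reverse. HXT6 and HXT7 are near identical, so their shares are uncertain.

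Genes of stress, reserve and stationary phase were lower. Of 24 general stress genes, 18 fell and 2 rose, with a median of -1.39, and they held 6.59, 6.96 and 6.32% in C0 and 4.45, 3.08 and 3.49% in C3-06 of all reads. HSP12, a membrane-protecting stress protein, stood at 7149, 7372 and 6621 CPM in C0 and 1040.0, 699 and 962 CPM in C3-06. CTT1, the cytosolic catalase, stood at 1192, 1213 and 1178 CPM in C0 and 278, 201 and 222 CPM in C3-06. In both genes the strains did not overlap. OM45, of the mitochondrial outer membrane, fell by 2.72 log2 units. PRX1, a mitochondrial peroxiredoxin, rose by 0.45 log2 units. GTT1, a glutathione transferase, rose by 0.20 log2 units, a call lost without C3-06 replicate 1, C0 replicate 1 or C0 replicate 3, which left 1 member higher. Of chaperones, 1 of 27 rose and 21 fell, with a median of -1.12. SSA3, an Hsp70, stood at 2728, 2281 and 2614 CPM in C0 and 119, 105 and 119.6 CPM in C3-06, and SSA4 fell by 2.78, while SSA2, a constitutive member of the family, rose by 0.98 log2 units. FES1, an Hsp70 exchange factor, changed by -2.02, and HSP60, of mitochondrial folding, by -1.22 log2 units.

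AGGGG, the stress element bound by Msn2 and Msn4, was in 18 of 24 general stress promoters of 300 bases, on either strand, and in 21.6% of all promoters. It was in 35.9% of the promoters of genes at least 2-fold lower and 13.7% of those at least 2-fold higher. AGGGG was also in the windows of PRX1 and GTT1, which rose. It was in 23 of 43 respiratory chain and ATP synthase promoters, a list in which all 43 genes fell. Vacuolar protease and proton pump promoters held it in 11 of 20 cases, in a list where 15 genes rose and 1 fell. The promoters of HSP12 and CTT1 are printed up to the start codon, with AGGGG or its reverse complement CCCCT in capitals.
HSP12 (R64, chrVI:107006-107255, plus strand): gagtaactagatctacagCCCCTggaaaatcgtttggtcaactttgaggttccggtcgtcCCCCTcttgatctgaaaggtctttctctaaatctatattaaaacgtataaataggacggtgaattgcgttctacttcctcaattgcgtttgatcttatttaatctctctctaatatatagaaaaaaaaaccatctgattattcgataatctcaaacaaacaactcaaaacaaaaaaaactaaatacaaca
CTT1 (R64, chrVII:654384-654633, plus strand): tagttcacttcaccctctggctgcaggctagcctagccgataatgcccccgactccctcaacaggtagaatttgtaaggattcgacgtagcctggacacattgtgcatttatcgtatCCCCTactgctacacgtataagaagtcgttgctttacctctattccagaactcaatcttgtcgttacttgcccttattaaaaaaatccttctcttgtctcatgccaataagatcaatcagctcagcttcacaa

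Stationary phase genes had the lowest median of all 58 lists. The lists were chosen with earlier results of these data known, so nothing is concluded from that rank. Of 21, 19 fell, with a median of -2.39. SPG1 stood at 1222, 944 and 880.0 CPM in C0 and 46.4, 28.3 and 31.9 CPM in C3-06. FMP45, of the cell cortex, stood at 1210.1, 1137 and 958 CPM in C0 and 71.9, 65.7 and 67.0 CPM in C3-06, and MBR1 fell by 2.40 log2 units. SPG3 rose by 0.49 log2 units. Reserve carbohydrate genes fell in 14 of 17 cases and rose in 0: GLG2, which primes glycogen, changed by -3.31, GAC1, of the phosphatase that turns on glycogen synthase, by -2.52, GLC3, the branching enzyme, by -2.37, and ATH1, a trehalase, by -1.05 log2 units. Of 34 autophagy genes, 27 fell and 3 rose. ATG41 stood at 63.0, 58.6 and 67.9 CPM in C0 and 12.6, 9.97 and 11.8 CPM in C3-06, ATG9, the membrane protein of the forming autophagosome, changed by -1.46 and ATG32, the receptor for mitochondria, by -1.47 log2 units. ATG5, of the conjugation machinery, rose by 1.28 log2 units. Of 20 vacuolar protease and proton pump genes, 15 rose and 1 fell, where 2 fell without C3-06 replicate 1 or with DESeq2. The pump subunits VMA8 and VMA5 rose by 1.74 and 1.53 log2 units.

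Of 25 oxidative stress enzymes, 10 were higher and 13 lower. Those are 40.0% and 52.0%, against 41.1% and 39.4% of all genes tested, so nothing particular to the list is read from the split. SOD1, the cytosolic superoxide dismutase, stood at 2654, 2717 and 2473 CPM in C0 and 786, 642 and 689 CPM in C3-06. TSA2, a peroxiredoxin, and GPX1, a glutathione peroxidase, changed by -2.77 and -2.89, while GSH2, of glutathione synthesis, and TRX1, a thioredoxin, rose by 1.27 and 1.15 log2 units. Regulators of growth by nutrients were lower in 23 of 34 cases and higher in 5. DOT6, a repressor of ribosome biogenesis genes, stood at 989.6, 809.5 and 891 CPM in C0 and 292, 262 and 286 CPM in C3-06. The kinase genes TOR1 and YAK1 changed by -1.45 and -1.46, GIS1, an activator of stationary phase genes, by -1.31, and SOK2 rose by 0.76 log2 units.

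**Figure D5:**
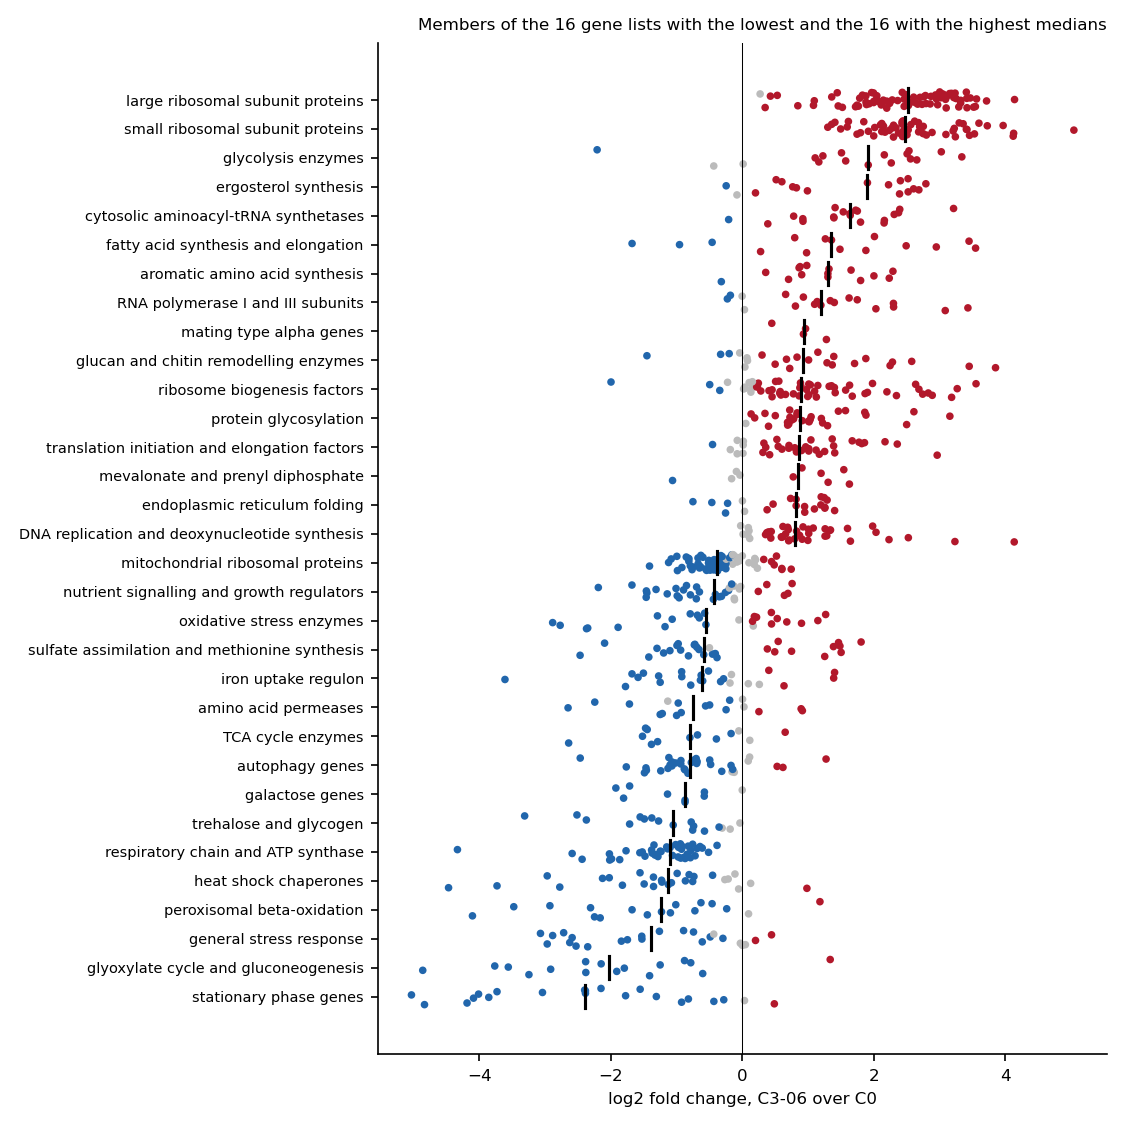
Log2 fold change of C3-06 over C0 for every tested member of the 16 gene lists with the lowest medians and the 16 with the highest (1 point per gene, LEU2 not drawn). Red points rose, blue points fell and grey points were not called at an adjusted p of 0.05 (edgeR), and black bars are list medians. Ribosomal proteins have the highest median and stationary phase genes the lowest, among lists chosen with earlier results of these data known.

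Mitochondrial energy genes fell together. All 43 tested nuclear genes of the respiratory chain and ATP synthase were called lower, 37 by more than 1.5-fold. COX9 and COX6, subunits of cytochrome c oxidase, changed by -1.77 and -1.52 log2 units, and SDH1, the flavoprotein of succinate dehydrogenase, stood at 1928, 1788 and 1654 CPM in C0 and 504, 403 and 445 CPM in C3-06. Of TCA cycle genes, 1 of 13 rose and 10 fell, with a median of -0.80. KGD1, of the oxoglutarate dehydrogenase complex, changed by -1.52 ± 0.094, MDH1, malate dehydrogenase, by -1.47 ± 0.11, FUM1, fumarase, by -1.45 ± 0.09, and CIT3 by -2.64 ± 0.27 log2 units. LSC1, a succinyl-CoA ligase subunit, rose by 0.65 log2 units, and LSC2 was not called. In the glyoxylate and gluconeogenic list, 1 of 16 rose and 15 fell, with a median of -2.03. The activator genes CAT8 and ADR1 changed by -2.15 and -1.25 log2 units, and ICL2, a mitochondrial methylisocitrate lyase, was the 1 member that rose, from 81.7, 87.7 and 85.8 CPM to 219.7, 217 and 209 CPM. In peroxisomal β-oxidation, 1 of 17 rose and 15 fell, with a median of -1.23. CAT2, a carnitine acetyltransferase, stood at 1185, 1253 and 1101 CPM in C0 and 135, 86.9 and 95.8 CPM in C3-06, FOX2 fell by 2.25, and ANT1, the ATP carrier of the peroxisome, rose by 1.18 log2 units. In heme and ubiquinone synthesis, 6 of 19 rose and 8 fell, with a median of -0.07, which turned to 0.031 without C0 replicate 2 and to 0.131 with library totals alone. HEM1, the first enzyme of heme synthesis, fell by 1.61, and HEM13, an oxygen-dependent step, rose by 1.36 log2 units.

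Sterol synthesis was higher at most steps, apart from the overexpressed HMG1. In the mevalonate list, 6 of 10 rose and 1 fell, with a median of 0.84. ERG10 and ERG13, which make and extend acetoacetyl-CoA, rose by 1.63 and 1.31, ERG20, farnesyl diphosphate synthase, by 1.55, and MVD1 by 1.20 log2 units. BTS1, the yeast enzyme for geranylgeranyl diphosphate, the precursor of carotenoids, stood at 11.4, 14.9 and 13.1 CPM in C0 and 22.8, 25.4 and 26.1 CPM in C3-06. ERG8, IDI1 and HMG2 were not called, although HMG2 was, as lower, without C0 replicate 3 or C3-06 replicate 1. In the later pathway to ergosterol, 15 of 17 rose and 1 fell, with a median of 1.91. The fall, of ERG29, was not called without C0 replicate 1 or C0 replicate 3. ERG2 stood at 22.3, 21.1 and 28.3 CPM in C0 and 133, 187 and 179 CPM in C3-06, and CYB5, the cytochrome that donates electrons to its oxidases, rose by 2.52 log2 units. Among regulators and transporters, 5 of 14 rose and 7 fell, with a median of -0.10, a median that library totals alone turned to 0.103. The activator UPC2 stood at 22.4, 21.8 and 26.2 CPM in C0 and 85.1, 114 and 109.5 CPM in C3-06, NSG1, a protein that stabilises Hmg2, rose by 2.32 and SUT2 by 2.15 log2 units. ROX1, the repressor of low-oxygen genes, changed by -1.19, SUT1 by -1.14 and the sterol transfer protein LAM5 by -0.88 log2 units.

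Lists of storage and membrane lipid genes held both rises and falls. In the storage list, 5 of 14 rose and 7 fell, with a median of -0.13, a median that library totals alone turned to 0.064. The sterol esterifying enzymes ARE1 and ARE2 rose by 0.96 and 0.99, as did the steryl ester hydrolases YEH1 and YEH2, by 1.07 and 1.35 log2 units. PAH1, the phosphatase that directs phosphatidate to triacylglycerol, stood at 568, 423 and 447 CPM in C0 and 124, 115 and 116 CPM in C3-06, and the acyltransferase DGA1 and the lipase TGL4 changed by -0.68 and -0.80 log2 units. In fatty acid synthesis, 12 of 15 rose and 3 fell, with a median of 1.36. ELO2, a fatty acid elongase, stood at 4.18, 6.28 and 5.25 CPM in C0 and 50.6, 71.8 and 62.8 CPM in C3-06, FAA4, an acyl-CoA synthetase, rose by 3.45 and FAS2 by 1.88, while FAA2 and FAA1 changed by -1.68 and -0.95 log2 units. For sphingolipids, 11 of 23 rose and 5 fell, with a median of 0.15. LCB1 and LCB2, the first enzyme's subunits, rose by 1.74 and 1.42, and the ceramidase gene YPC1 fell by 1.25 log2 units. For phospholipids, 10 of 20 rose and 8 fell, with a median of 0.078. SLC1 rose by 1.88, CPT1 by 1.48 and EKI1 by 1.52, and OPI3 and CKI1 changed by -1.08 and -1.09 log2 units.

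Amino acid genes were counted by pathway. Aromatic synthesis rose in 14 of 15 members, with TRP2, anthranilate synthase, at 50.4, 55.2 and 54.0 CPM in C0 and 238, 276 and 269 CPM in C3-06. In leucine and branched-chain synthesis, 9 of 14 rose and 4 fell, with a median of 0.46. ILV1, threonine deaminase, rose by 2.12, ILV3 by 1.72 and LEU9 by 1.72, while LEU4, BAT2 and the permease BAP2 changed by -0.62, -1.42 and -0.93 log2 units, and LEU2 had no read. In arginine, lysine and histidine synthesis, 14 of 24 rose and 9 fell, with a median of 0.34. LYS20, a homocitrate synthase, stood at 229.8, 164 and 238 CPM in C0 and 27.2, 29.5 and 29.1 CPM in C3-06, against rises of LYS9 and LYS12 by 1.68 and 1.02 log2 units. TGACTC, the site of the activator Gcn4, was in 14 of 24 promoters of the arginine, lysine and histidine list and in 7.99% of all promoters. It was in 7.37% of the promoters of genes at least 2-fold higher and 9.97% of those at least 2-fold lower. For sulfate and methionine, 10 of 29 rose and 18 fell, with a median of -0.59. MET6, methionine synthase, stood at 709.7, 547 and 639 CPM in C0 and 104, 118 and 121 CPM in C3-06, and HOM3, aspartate kinase, rose by 1.81 log2 units. Both strains carry met15Δ0. Amino acid permeases were lower in 12 of 18 cases: DIP5, for acidic amino acids, stood at 939, 818 and 969.6 CPM in C0 and 136, 148 and 149 CPM in C3-06, MUP3 fell by 2.24 and GNP1 rose by 0.90 log2 units.

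Lists of nitrogen, nucleotide and metal genes held both rises and falls. In the nitrogen list, 6 of 27 rose and 14 fell, with a median of -0.26, and 10 rose with library totals alone. CAR1, arginase, stood at 527, 439 and 489 CPM in C0 and 76.8, 84.4 and 97.5 CPM in C3-06, and ASP1, an asparaginase, rose by 1.94 log2 units. Of 28 purine and pyrimidine genes, 15 rose and 5 fell, or 3 without C0 replicate 1 and 1 with library totals alone. IMD2, IMP dehydrogenase of guanine nucleotide synthesis, stood at 36.3, 35.6 and 32.6 CPM in C0 and 414, 453 and 377 CPM in C3-06, and its close relatives IMD3 and IMD4 rose by 2.64 and 1.65 log2 units. These copies are similar and their reads may have been divided. In the iron regulon, 4 of 24 rose and 16 fell, with a median of -0.61. SIT1, a carrier of iron-bound siderophores, stood at 341, 194 and 302 CPM in C0 and 24.7, 21.4 and 22.3 CPM in C3-06, the ferroxidase FET3 fell by 1.78, and FIT1 and ATX1 rose by 1.39 and 1.41 log2 units. For copper and zinc, 6 of 13 rose and 4 fell, with a median of 0.12. CTR1, the high-affinity copper carrier, stood at 943, 829 and 910.3 CPM in C0 and 64.0, 82.5 and 107 CPM in C3-06, while the other carrier CTR3 rose by 0.95 log2 units. In the phosphate list, 7 of 25 rose and 8 fell, with a median of -0.028, a median that turned to 0.006 without C0 replicate 3 and to 0.176 with library totals alone. PHO91 rose by 1.25 and SPL2 fell by 1.93 log2 units. In glycerol metabolism, 5 of 11 rose and 4 fell, with a median of 0.11, which turned to -0.031 without C3-06 replicate 1, with 4 higher and 4 lower. GPP1, glycerol-3-phosphatase, stood at 14.1, 14.9 and 18.5 CPM in C0 and 104, 159 and 117 CPM in C3-06, while GUT1, glycerol kinase, fell by 1.34 log2 units and GPD1 was not called.

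Proteasome, galactose and sporulation genes completed the lists. Of proteasome subunits, 14 of 32 rose and 11 fell, with a median of 0.06, and 6 fell with library totals alone. RPN12 and RPN11, of the lid and cap, changed by -0.70 and -0.56, and PRE2, a catalytic subunit, rose by 0.75 log2 units. Of galactose genes, 0 of 9 rose and 8 fell, with a median of -0.87. The member not called was GAL80, with 0 reads in both strains, which was tested only through its 7328 reads in BY47419. It is counted in that median. GAL3, the sensor, changed by -1.81 and GAL7, the transferase, by -1.14 log2 units. Of meiosis and sporulation genes, 9 of 18 rose and 3 fell, with a median of 0.23. SSP1 rose by 1.40 and REC8, the meiotic cohesin, fell by 1.05 log2 units.

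The cell surface and the secretory pathway that supplies it were higher. Protein glycosylation genes rose in 29 of 30 cases and fell in 0, with a median of 0.88. ALG5, which makes dolichol-linked glucose, stood at 5.32, 5.32 and 4.96 CPM in C0 and 42.4, 51.4 and 45.7 CPM in C3-06, and PMI40, which supplies mannose, rose by 2.61 log2 units. PMT2, an O-mannosyltransferase, rose by 1.30 log2 units. Of 21 genes of folding in the endoplasmic reticulum, 15 rose, with EUG1 at 1.41 ± 0.074 and LHS1 at 1.26 ± 0.10 on the log2 scale, and the degradation genes HRD1 and DER1 changed by -0.75 and -0.46. Of 24 glucan and chitin enzymes, 17 rose and 3 fell. SCW10, a wall glucanase, stood at 64.7, 63.7 and 56.7 CPM in C0 and 584, 1174 and 924 CPM in C3-06, GAS3 and CRH1, which remodel wall glucan, rose by 2.25 and 2.29, and SKN1 fell by 1.45 log2 units. Of structural wall proteins, 15 of 24 rose and 4 fell, with a median of 0.62. CCW12 and PIR1 rose by 2.11 and 1.20, and SPI1, a wall protein of stressed cells, fell by 1.53 log2 units. Multidrug transporters fell in 10 of 19 cases and rose in 2, or 1 without C3-06 replicate 1 and 4 with library totals alone. TPO2, with a rise of 3.89, had the largest change of the list, and the largest falls were those of PDR15 with -1.99 ± 0.08, YOR1 with -1.73 ± 0.087 and SNQ2 with -1.42 ± 0.073 log2 units.

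Mating type genes were read as a check of cell type. The a-type genes MFA1, MFA2 and STE2 had 1773, 5487 and 12463 reads in C0 and 3679, 6298 and 31251 in C3-06. STE2, the receptor of a cells, rose by 0.91 log2 units. The α-type receptor gene STE3 was read far less per length than STE2. Its mean was 6.95 FPKM in C0 and 15.7 in C3-06, against 182.6 and 396.1 for STE2. All 4 α-type genes of the list rose. MFA2 and BAR1 were not called, although MFA2 was, as lower, without C3-06 replicate 2 and with a replicate block. BAR1, a protease that degrades α pheromone, was called higher without C3-06 replicate 1, by 0.543 log2 units, and with library totals alone, by 0.525. ASG7 fell by 1.09 log2 units. In both strains the receptor of a cells was the higher of the pair. The labels used here name no mating type.

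Whole chromosomes kept close to the median gene. Median log2 fold changes of the 16 nuclear chromosomes ran from -0.038 for chromosome XVI to 0.067 for chromosome X. These medians lie within the shift of the scaling, which moved that of chromosome XVI to 0.164 with library totals alone. Over 5494 windows of 21 neighbouring genes the median ran from -0.81 on chromosome XII to 1.10 on chromosome XV, around 0.022. The highest window, on chromosome XV from 111431 to 154745 (R64), held 15 genes that rose and 3 that fell.

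C3-06 was also set against C5-63, an evolved strain that its labels describe in the same words, by the direct contrast of these libraries. In that contrast 40.8% of genes were called, 1151 higher and 1221 lower in C5-63, against 80.5% between C3-06 and C0. Of the 24 genes with the largest changes in C3-06, 14 lay further out in the same direction in C5-63, 9 were not called and 1, LEU2, went back. HXT6 differed from its level in C3-06 by -1.81 ± 0.23 (SE), COX26 by -1.04 ± 0.21 and the label gene HMG1 by -0.95 ± 0.13 on the log2 scale. RPS22A differed by 0.87 ± 0.16 and SCW10 by 0.83 ± 0.17, and outside the largest changes HSP30 differed by -1.26 ± 0.27 and IMD2 by 1.12 ± 0.11 log2 units. For others no difference was called: TDH3 differed by -0.17 ± 0.15, NCW2 by 0.12 ± 0.16, TPO2 by 0.26 ± 0.14 and ALD6 by 0.49 ± 0.27 log2 units, with adjusted p of 0.394, 0.576, 0.142 and 0.158 in the edgeR quasi-likelihood test, which does not show equal levels. Without C3-06 replicate 1, 821 genes were higher and 912 lower in C5-63. LEU2 had 17634 reads in C5-63 and 0 in C3-06.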

How the data were processed

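RNA sequencing libraries of 5 yeast strains, 3 each, were assigned to strains from their labels. The authors' deposited file gives each gene's raw count and its FPKM in every library. The submitters' processing notes name the aligner HISAT2 without a version. How reads were counted, with what strand setting and on what build is not given in sources used here, so overlapping genes and near-identical copies are uncertain. Of 5980 genes, 5977 have their identifier and 5972 their start and end in R64, and 99.2% of lengths are multiples of 3, hence coding lengths. Deposited counts were used for tests, and deposited FPKM only to compare levels between genes.

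Library totals were 16144808 to 21586409 counts. In R 4.3.3, edgeR 4.0.16 filtered genes (filterByExpr, minimum count 10, total 15), scaled libraries by TMM and fitted a robust quasi-likelihood model of all 15 libraries with strain as the factor. The contrasts C3-06 minus C0 and C5-63 minus C3-06 were tested two-sided, and glmTreat tested changes of more than 1.5-fold. Benjamini-Hochberg adjustment ran over 5814 genes. A prior count of 2 was used only for the log2 CPM with which replicate numbers were compared. Genes at 0 reads were given against a floor of 3 counts, which covers counting error only. The fit was tested on simulated counts in which few genes were changed, as many up as down. That did not test the scaling where most genes change. Alternatives (DESeq2 1.42.0, limma-voom 3.58.1, other scalings and filters, left-out libraries, a replicate block) were run.

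Genes were named by these rules: the 12 largest rises and falls among called genes with a standard symbol, no overlap and at least 10 CPM in the higher strain, the 6 largest gains and losses of CPM, the leading and contrary members of 58 gene lists, pairs of duplicated genes, and the genes of the labels with LEU2's neighbours. The rules and lists were chosen with earlier results of these data known. Some genes were named outside them after their values were seen, the promoter examples NOP1, HAS1, POL30 and the marker MFA2 among them. Promoters were read from R64 for 5979 genes. Deviations of same-numbered C0 and C3-06 libraries had correlations of 0.042, -0.243 and 0.234, inside the -0.352 to 0.303 of unlike numbers. The main fit did not pair them, although with 3 libraries per strain this check cannot show that the numbers are unpaired. Some genes and 1 gene list are not reported here.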

Additional observations from a re-analysis of the deposited data

Results flagged for a closer look

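LEU2 differed between C3-06 and the evolved strain C5-63 in the opposite direction to its difference from C0. C3-06 had 0 reads in all 3 libraries and C5-63 had 17634, so LEU2 was at least 5410-fold higher in C5-63, against a floor of 3 counts over C3-06 with library sizes scaled by TMM. BY47419 had 10346 reads and C0 had 8491, and C7-143 had 14968. The direct contrast of C5-63 and C3-06 was called by the edgeR quasi-likelihood test with an adjusted p of 4.98e-12. The cause was not tested.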

How the results depend on the processing

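Counts of genes called in C3-06 against C0 stayed within 1.5 times under every alternative run. With the C0 and C3-06 libraries left out in turn, 2287 to 2353 genes were higher and 2199 to 2294 lower, and by more than 1.5-fold 1239 to 1335 were higher and 972 to 1087 lower. With a replicate block on the labels' numbers, 2393 genes were higher and 2300 lower, and 1325 and 1041 by more than 1.5-fold. DESeq2 called 2353 higher and 2363 lower, and limma-voom 2386 and 2300. In C5-63 against C3-06, left-out libraries gave 821 to 1149 genes higher and 912 to 1245 lower, while an adjusted p below 0.01 gave 703 higher and 801 lower, and library totals alone gave 761 lower. With library totals alone, the median log2 fold change turned to 0.058 for pyruvate decarboxylases with alcohol and aldehyde dehydrogenases, 0.103 for sterol regulators, 0.064 for storage lipids, 0.176 for phosphate genes, 0.17 for chromosome VI and 0.164 for chromosome XVI, and RPO21 turned to 0.056 and RPO31 to 0.022. Medians over the fits with 1 library left out ran from -0.085 to 0.006 for phosphate genes, -0.006 to 0.039 for chromosome II, -0.001 to 0.06 for chromosome III, -0.033 to 0.006 for chromosome VI and -0.016 to 0.033 for chromosome XIII. Medians near 0 also turned. That of pentose phosphate genes was -0.03 and ran from -0.243 to 0.2 with 1 library left out, with 0.002 by limma-voom and 0.17 with library totals alone. That of glycerol genes, 0.107, turned to -0.031 without C3-06 replicate 1, and that of mitotic cyclins, -0.035, to 0.015 without it and to 0.17 with library totals alone. That of heme genes turned to 0.031 without C0 replicate 2 and to 0.131 with library totals alone, that of chromosome I to -0.032 and of chromosome XI to -0.001 without C0 replicate 3, and that of chromosome IX to 0.189 with library totals alone. With library totals alone 11 phosphate genes were higher and 5 lower, 5 autophagy genes were higher, and the lower calls fell to 5 for phospholipids, 3 for sphingolipids and 2 for folding in the endoplasmic reticulum. The cause was not tested. Depth limits genes at 0 reads: a count of 0 allows up to 3 reads over a strain.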
